A study of Homo sapiens with 8 samples.

Results

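Expression of 9 genes of the bone morphogenetic protein (BMP) pathway, 5 target genes (ID1, ID2, ID3, ID4 and ATOH8) and 4 receptor genes (BMPR1A, BMPR1B, ACVR1 and BMPR2), was followed in fibroblasts exposed to medium from cells that were becoming senescent. The genes were taken by symbol from the 27696 genes of the count table. All 9 were found and all 9 passed the filter on low counts, which left 13798 genes for testing. The recipient cells were normal IMR90 fibroblasts, a primary human lung fibroblast strain of embryonic origin. For 3 days they received medium that had been conditioned by IMR90 ER:RAS fibroblasts, which carry an oncogenic RAS protein fused to the estrogen receptor domain and enter oncogene-induced senescence when 4-hydroxytamoxifen (4-OHT) is added. The medium was collected at day 0, 4, 7 or 10 of 4-OHT, and D0, D4, D7 and D10 stand for the recipient cells given each medium. D0 is the control, and its donor cells carried ER:RAS as well. Each of the 4 groups had 2 libraries, 1 from each of 2 independent experiments. All cells come from a single strain, so the spread between libraries is one between experiments and not between donors, and medium without conditioning was not analysed here. Whether BMP target genes followed the expression of their receptors was the question put to these libraries.

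BMP ligands bind a complex of a type II receptor, such as BMPR2, and a type I receptor, such as BMPR1A, BMPR1B or ACVR1. The type II receptor phosphorylates the type I receptor, which in turn phosphorylates SMAD1, SMAD5 and SMAD9. These enter the nucleus with SMAD4 and activate target genes, among which the ID genes are the most widely used readouts. ID proteins are helix-loop-helix proteins without a DNA-binding region that hold back the E proteins TCF3, TCF4 and TCF12, and they are known for their roles in proliferation, differentiation and senescence of fibroblasts. ATOH8 is a basic helix-loop-helix transcription factor that is also induced by BMP signals.

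Total counts lay between 11708193 and 13395912 per library. All 10 fibroblast markers were detected in every library. Their summed level was between 30288 and 46802 CPM, which are read counts scaled by library size, in 7 libraries and 10062 CPM in the D10 library of experiment 2, where COL1A1 alone was at 1295 CPM. Of the endothelial markers, PECAM1 and CDH5 stayed below 1 CPM in every library while TEK was at 40.4 to 120.5 CPM. The 8 epithelial markers together were at 46.5 to 95.8 CPM, with KRT18 at 22.6 to 62.8 CPM and KRT5 listed at 0 or without a row. The 8 leukocyte markers together reached 1.53 to 4.11 CPM, with CD3E listed at 0 or without a row. At D10 the values of each ID gene are also given for both experiments separately, since the D10 library of experiment 2 stands apart in these markers. The part of this difference in the ID gene values was not tested.

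The stretches of reference sequence before ID1, ID2 and ID3 are shown because ID1 and ID3 were higher and ID2 was lower than at D0 in both experiments on all 3 days. Each is the 250 bases before the RefSeq start of the gene, read 5′ to 3′ on the gene's strand from GRCh38.p14. That of ID1 lies at chr20:31605039-31605288 on the plus strand, that of ID2 at chr2:8681806-8682055 on the plus strand and that of ID3 at chr1:23559502-23559751 on the minus strand. Capitals mark GCCG or its reverse complement CGGC, a core of the GC-rich elements bound by SMAD1 and SMAD5, and CAGAC or its reverse complement GTCTG, the SMAD-binding element bound by SMAD4.
ID1: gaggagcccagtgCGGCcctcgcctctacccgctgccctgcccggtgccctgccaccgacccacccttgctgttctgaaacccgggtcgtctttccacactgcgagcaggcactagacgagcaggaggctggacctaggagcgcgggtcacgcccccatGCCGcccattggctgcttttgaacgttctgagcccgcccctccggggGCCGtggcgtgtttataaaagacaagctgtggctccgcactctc
ID2: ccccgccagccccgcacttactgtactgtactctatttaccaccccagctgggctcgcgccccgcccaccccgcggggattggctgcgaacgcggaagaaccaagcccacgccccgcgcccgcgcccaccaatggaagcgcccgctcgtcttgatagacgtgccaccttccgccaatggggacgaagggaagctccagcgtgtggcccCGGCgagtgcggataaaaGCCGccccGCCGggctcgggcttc
ID3: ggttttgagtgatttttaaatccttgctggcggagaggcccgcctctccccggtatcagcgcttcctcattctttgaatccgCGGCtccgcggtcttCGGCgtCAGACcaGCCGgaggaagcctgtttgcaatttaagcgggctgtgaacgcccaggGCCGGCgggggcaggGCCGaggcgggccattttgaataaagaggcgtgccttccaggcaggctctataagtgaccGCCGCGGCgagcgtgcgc
Both strands were searched. The ID1 stretch holds 3 matches to GCCG and none to CAGAC. The ID2 stretch also holds 3 matches to GCCG and none to CAGAC, with all 3 within 42 bases of the start. The ID3 stretch holds 8 matches to GCCG, some of which overlap, and 1 to CAGAC at 147 bases before the start. The longer palindrome GGCGCC was found in none of the 3. The E-box CANNTG, the kind of site used by the partners of ID proteins, was found 1 time in the ID2 stretch, 205 bases before the start, and in neither of the others. Among the stretches of the same length before 35116 RefSeq starts, 65.5% hold GCCG, 38.0% hold CAGAC, 16.4% hold GGCGCC and 61.8% hold CANNTG, so these short words are common. The same window before the first listed start held 9 matches to GCCG for ATOH8, 12 for ACVR1, 14 for BMPR1B and 16 for BMPR2. It held 6 for ID4 and 0 for BMPR1A, so the number in ID3 is not particular to it. A match describes the letters of the stretch and is not a mapped binding site. The lack of one says only that these letters are not in this window.

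Among the ID genes, ID1 and ID3 lay above D0 with later media and ID2 lay below it. Levels are given as CPM after TMM scaling, first D0, then D4, D7 and D10, with experiment 1 before experiment 2. ID1 (ENSG00000125968.8, chr20:31605283-31606515, plus strand) was at 10.3 and 7.06 CPM in D0, 15.3 and 15.96 in D4, 12.5 and 27.7 in D7, and 17.4 and 13.96 in D10. Every later library was above both D0 libraries. In experiment 2 the level was highest at D7 and in experiment 1 at D10. ID3 (ENSG00000117318.8, chr1:23557918-23559794, minus strand) was at 29.5 and 16.7 CPM in D0, 41.7 and 25.9 in D4, 34.4 and 53.8 in D7, and 85.1 and 36.8 in D10. It lay above both D0 libraries at D7 and D10, and at D4 the library of experiment 2 was below the D0 library of experiment 1. As for ID1, the highest ID3 level was that of D7 in experiment 2 and that of D10 in experiment 1. ID2 (ENSG00000115738.9, chr2:8678845-8684453, plus strand) was at 24.2 and 26.1 CPM in D0, 10.0 and 15.6 in D4, 7.03 and 19.1 in D7, and 7.52 and 5.13 in D10. Every later library was below both D0 libraries, and the D10 libraries of both experiments held less ID2 than those of D4.

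**Figure D1:**
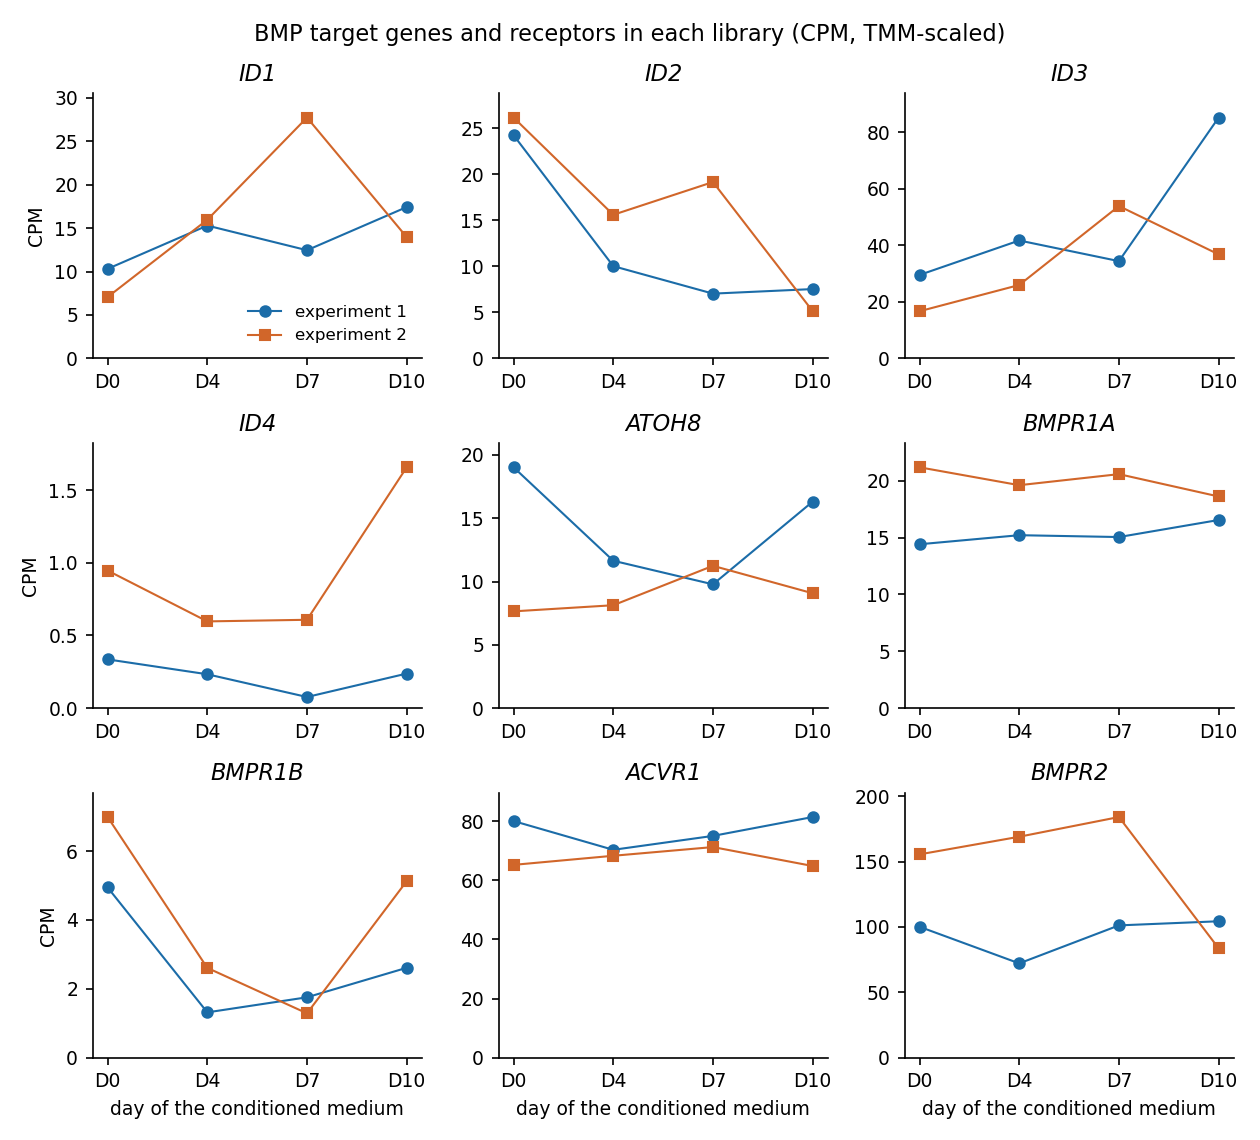
Level of each gene in CPM (linear axes starting at 0) against the day of the conditioned medium, with 1 point per library and a line joining the 4 libraries of each experiment. ID1 and ID3 lie above the D0 library of their own experiment at every later point and ID2 lies below it, while ACVR1 stays between 64.8 and 81.4 CPM.

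Within each experiment, every D4, D7 and D10 library was set against the D0 library of that experiment. ID1 was higher in 6 of 6 libraries, by 0.27 to 1.95 on the log2 scale. ID3 was higher in 6 of 6, by 0.22 to 1.68. ID2 was lower in 6 of 6, with log2 changes between -2.32 and -0.45. Of the receptors, BMPR1B was lower in 6 of 6 libraries, with log2 changes between -2.30 and -0.44. So 4 of the 9 genes kept 1 direction in all 6 libraries, and among all 13798 tested genes 19.5% did so, 8.73% higher and 10.8% lower. The other 5 genes had both signs. ID4 was higher in 1 library and lower in 5, BMPR2 was higher in 4 and lower in 2, and BMPR1A, ACVR1 and ATOH8 were each higher in 3 and lower in 3.

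The libraries of a group and those of D0 did not overlap for ID1 (above) and for ID2 and BMPR1B (below) at D4. At D7 this held for ID1 and ID3 (above) and for ID2 and BMPR1B (below), and at D10 for ID1 and ID3 (above) and ID2 (below). With 2 libraries per group such a separation is common. Among all tested genes, 9.73% lay above D0 without overlap and 12.6% below at D4. For D7 the shares were 13.7% and 15.2%, and for D10 they were 15.0% and 16%.

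In edgeR's quasi-likelihood fit of all 8 libraries, with Benjamini-Hochberg adjustment over all 13798 genes, 0 of the 9 genes passed an adjusted p of 0.05 on any day. The background was equally low, with 0%, 0% and 0.290% of all genes called on the 3 days. At an unadjusted p under 0.05 stood BMPR1B at D4, BMPR1B and ID1 at D7, and ID2 and ID3 at D10, so 1, 2 and 2 of the 9 genes, beside 2.96%, 4.34% and 7.94% of all genes. Libraries of the same experiment deviated together, so the test was repeated with the experiment as a replicate block. On the 3 days in turn it called 0.275%, 1.25% and 4.99% of all genes, and 0, 0 and 1 of the 9 genes, the 1 being ID2 at D10.

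The call of ID2 at D10 depended on the model. At D10 its log2 fold change against D0 was -1.99 (SE 0.48, 95% interval -3.10 to -0.88), a level of 0.251 times that of D0, with an adjusted p of 0.155 in the edgeR test without the block. With the replicate block it was -1.96 at an adjusted p of 0.0241, where 2.45% of all genes were called lower. DESeq2, the tool named in the study's methods, gave -1.99 at an adjusted p of 0.00398, where 1.13% of the genes it tested were called lower. The edgeR test without the filter on low counts gave an adjusted p of 0.00403, with 0.524% of all genes called lower. Without the D10 library of experiment 2, the one low in fibroblast markers, the fitted log2 fold change of ID2 was -1.74, and without that of experiment 1 it was -2.28, and neither passed the threshold. The earlier log2 fold changes were -0.98 at D4 (95% interval -2.04 to 0.09) and -0.94 at D7 (-2.01 to 0.12), and neither passed in any of these tests. A short stretch of ID2, 1.72% of its exon bases, is overlapped by the antisense gene ID2-AS1, and whether counting used strand is not given in the sources used here. In bulk RNA, fewer cells expressing ID2 and less ID2 RNA per cell cannot be told apart.

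For ID3 the log2 fold change was larger with each later medium, from 0.55 at D4 (95% interval -0.54 to 1.65) and 0.94 at D7 (-0.16 to 2.03) to 1.40 at D10 (0.30 to 2.51, adjusted p = 0.405 in the edgeR test). With the replicate block the adjusted p at D10 was 0.0793. Only the test without the filter on low counts placed it past the threshold, at an adjusted p of 0.0496, where 0.816% of all genes were called higher. Without the D10 library of experiment 1 the D10 value was 0.69, and without that of experiment 2 it was 1.88. Against the D0 library of the own experiment, the changes at D4, D7 and D10 were 0.50, 0.22 and 1.52 in experiment 1. In experiment 2 they were 0.63, 1.68 and 1.13. The order of the fitted values was thus not that of either experiment alone. ID1 had log2 fold changes of 0.85 at D4 (-0.06 to 1.76), 1.21 at D7 (0.30 to 2.12, adjusted p = 0.768) and 0.85 at D10 (-0.06 to 1.77, adjusted p = 0.680), and passed in no test. The intervals of ID1 and ID3 overlap on every day.

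**Figure D2:**
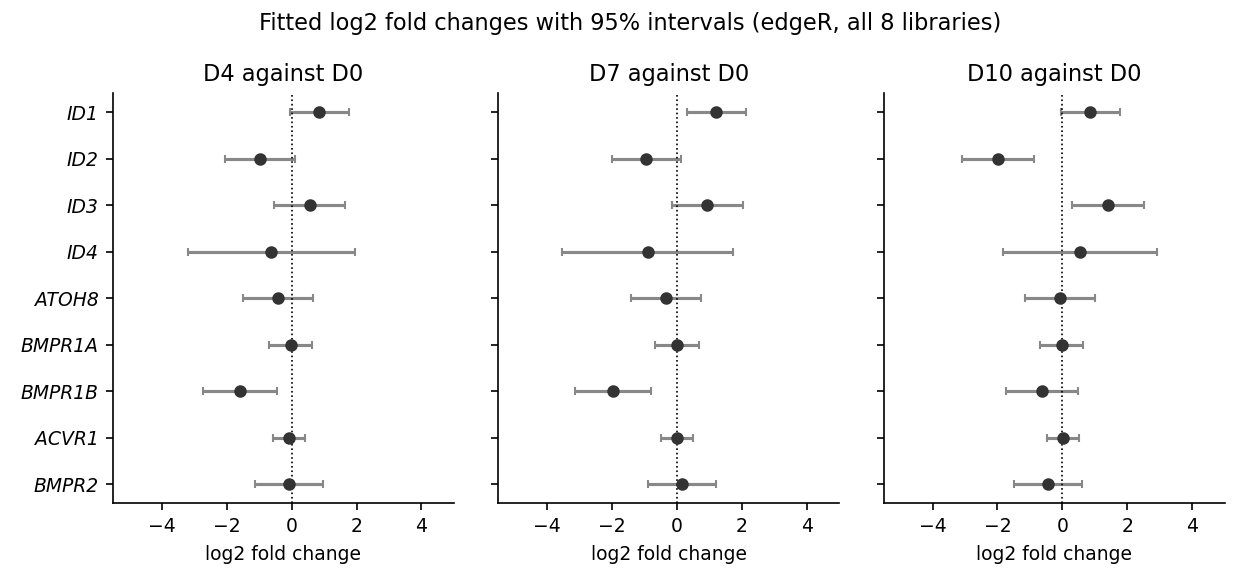
Log2 fold change against D0 (horizontal axis) of each of the 9 genes at D4, D7 and D10 from the edgeR fit of all 8 libraries, where points are estimates and bars are 95% intervals that are not adjusted for the number of genes. The ID2 interval at D10 runs from -3.10 to -0.88, ID4 has the widest intervals, and the ACVR1 estimates lie between -0.07 and 0.01.

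The opposite directions of ID1 and ID3 on one side and ID2 on the other went with a different make-up of the ID family. This was described from raw counts within each library, which library scaling does not touch, and was added after the levels had been seen, so no test is given. Shares are of reads and not of transcripts, since the genes differ in length. Of the reads on ID1 to ID4, ID2 took 37.6% (289 of 768, 95% Wilson interval 34.3% to 41.1%) and 51.4% (359 of 698, 47.7% to 55.1%) at D0. At D4 its share was 14.9% (12.7% to 17.4%) and 26.8% (23.8% to 30.05%). At D7 it was 13.03% (10.7% to 15.7%) and 18.9% (16.9% to 21.1%). At D10 it was 6.82% (5.61% to 8.27%) and 8.92% (7.06% to 11.2%). The share was lower at each later medium in both experiments, and the 4 groups did not overlap except for D4 and D7. These intervals cover counting error only.

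The share of ID3 went the other way, from 45.8% and 32.8% at D0 to 77.2% and 63.9% at D10, while that of ID1 was 16.02% and 13.9% at D0, 23.1% and 27.4% at D7, and 15.8% and 24.3% at D10. The reads on ID1 and ID3 together were 1.64 and 0.908 times those on ID2 in D0, 5.69 and 2.69 times in D4, 6.66 and 4.26 times in D7, and 13.6 and 9.89 times in D10. This ratio was higher at each later medium in both experiments. It recombines the counts of ID1, ID2 and ID3 behind the levels above, so it is no separate support for their directions. The summed CPM of the 4 genes had no such order. It was 64.4 and 50.8 in D0, 67.2 and 58.1 in D4, 53.9 and 101 in D7, and 110.3 and 57.5 in D10, so the sum at D10 overlapped that of every other group.

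**Figure D3:**
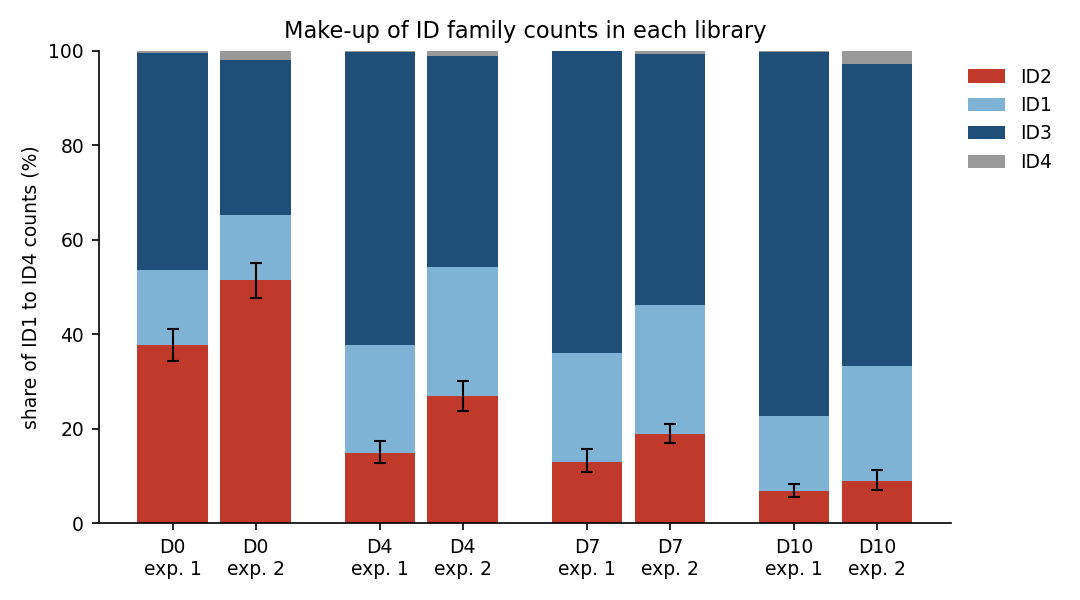
Share in % (vertical axis, 0 to 100) of each ID gene in the counts of ID1 to ID4, 1 bar per library, grouped by day of the medium; the error bars are 95% Wilson intervals of the ID2 share. ID2 goes from 37.6% and 51.4% at D0 to 6.82% and 8.92% at D10, and ID3 from 45.8% and 32.8% to 77.2% and 63.9%.

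The remaining targets had no common direction. ID4 (ENSG00000172201.11, chr6:19837386-19840684, plus strand), the ID gene best known from the nervous system, had between 1 and 21 counts per library, which is 0.0764 to 1.66 CPM. At D10 it had 3 counts in experiment 1 and 21 in experiment 2, or 0.238 and 1.66 CPM, and without the library of experiment 2 its log2 fold change went from 0.54 to -1.42. Its 95% intervals spanned -3.20 to 1.94 at D4, -3.54 to 1.73 at D7 and -1.84 to 2.91 at D10, and with the replicate block the one at D10 was -0.74 to 1.69. ATOH8 (ENSG00000168874.12, chr2:85751344-85788066, plus strand) was at 19.0 and 7.64 CPM in D0, 11.6 and 8.13 in D4, 9.78 and 11.2 in D7, and 16.3 and 9.07 in D10. The D0 libraries lay farther apart than any other pair, and every group overlapped D0. Its log2 fold changes were -0.43 (-1.51 to 0.65), -0.34 (-1.42 to 0.74) and -0.07 (-1.14 to 1.01), and without the D10 library of experiment 2 the last was 0.29. Thus of the 5 targets, ID1 and ID3 were higher, ID2 was lower, and ID4 and ATOH8 had both signs within the 6 libraries.

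Among the receptors, the type I receptor ACVR1 and the type I receptor BMPR1A varied least. ACVR1 (ENSG00000115170.13, chr2:157736444-157875862, minus strand) was at 80.0 and 65.2 CPM in D0, 70.3 and 68.3 in D4, 75.0 and 71.2 in D7, and 81.4 and 64.8 in D10. Its log2 fold changes on the 3 days were -0.07, 0.01 and 0.01, with 95% intervals from -0.56 to 0.50 at the widest. BMPR1A (ENSG00000107779.13, chr10:86756601-86932838, plus strand) was at 14.4 and 21.2 CPM in D0, 15.2 and 19.6 in D4, 15.0 and 20.6 in D7, and 16.5 and 18.6 in D10. The libraries of experiment 2 were above those of experiment 1 in every group. The log2 fold changes were -0.03, 0.0002 and -0.02, with intervals between -0.70 and 0.66. Of the 50-base words of BMPR1A transcripts, 12.03% also occur in other genes, among them the pseudogenes BMPR1AP1 and BMPR1AP2, so its level is less certain than the others.

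BMPR2 (ENSG00000204217.13, chr2:202376936-202567751, plus strand), the type II receptor, was at 100.1 and 155 CPM in D0, 72.2 and 169 in D4, 101.2 and 184 in D7, and 104 and 83.7 in D10. In experiment 2 it was above 150 CPM with every medium but that of D10, and in experiment 1 it stayed near 100 CPM apart from D4. Every group overlapped D0. The log2 fold changes were -0.08 (-1.13 to 0.96), 0.16 (-0.89 to 1.20) and -0.44 (-1.49 to 0.61).

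BMPR1B (ENSG00000138696.10, chr4:94757968-95158448, plus strand), the type I receptor with the fewest reads, was the receptor with the largest differences from D0. Its counts were 59 and 96 in D0, 17 and 35 in D4, 23 and 17 in D7, and 33 and 65 in D10. In CPM this was 4.94 and 6.99, then 1.32 and 2.61, then 1.76 and 1.29, then 2.61 and 5.13. The level was lowest at D4 or D7 and the D10 libraries overlapped D0 again. The log2 fold change was -1.60 at D4 (-2.74 to -0.45, adjusted p = 1 with edgeR), -1.96 at D7 (-3.13 to -0.79, adjusted p = 0.502) and -0.62 at D10 (-1.73 to 0.48). At D7 the adjusted p was 0.0589 with the replicate block, 0.0853 with DESeq2 and 0.0772 without the filter on low counts, so it came near the threshold without passing it. Within the reads on the 3 type I receptors, BMPR1B took 4.97% and 7.48% at D0, 1.52% and 2.88% at D4, 1.39% to 1.91% at D7 and 2.60% to 5.79% at D10. ACVR1 took 69.8% to 81.7% of these reads in every library.

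Between genes, levels were compared as CPM per kilobase of exon. The order of the medians over the 8 libraries was ID3 (19.8), ACVR1 (17.7), ID1 (11.9), BMPR2 (8.64), ID2 (5.80), ATOH8 (1.73), BMPR1A (1.54), BMPR1B (0.414) and ID4 (0.199), all in CPM per kilobase. Neighbours in this order were not separated beyond their spread over libraries. ID3 ranged from 9.28 to 47.4 and ACVR1 from 16.2 to 20.4, and ATOH8 from 1.26 to 3.13 and BMPR1A from 1.26 to 1.86. The exception was BMPR1B, at 0.205 to 1.11, whose range lay below that of BMPR1A. ACVR1 was thus the type I receptor gene with the highest level per length in every library, above BMPR1A and BMPR1B. The place of ID2 in the order moved with the medium. At D0 it was at 10.98 and 11.9 CPM per kilobase, above ID1 at 8.36 and 5.73, and at D10 it was at 3.41 and 2.33, below ID1 at 14.1 and 11.3.

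Whether targets followed receptors was examined step by step. Within each experiment the change from D0 to D4, from D4 to D7 and from D7 to D10 gave 6 steps for each of the 20 pairs of a target and a receptor. The target and the receptor moved the same way in 74 of 120 steps (61.7%), 60.0% in experiment 1 and 63.3% in experiment 2. These steps share libraries, so no test is given. No share over all pairs of tested genes stands beside these or the following step counts, so none is called high or low. By receptor the count was 23 of 30 for BMPR1A, 20 of 30 for BMPR2, 20 of 30 for ACVR1 and 11 of 30 for BMPR1B. Most of the agreement came from receptor changes close to 0. All 6 steps of BMPR1A lay between -0.14 and 0.14 on the log2 scale and all 6 of ACVR1 between -0.19 and 0.12. When both genes had to change by at least 0.2, no step of BMPR1A or ACVR1 was left, and 17 of 42 steps (40.5%) went the same way, 7 of 15 for BMPR2 and 10 of 27 for BMPR1B. Part of these steps rest on few reads, since ID4 had 1 to 21 counts per library and BMPR1B 17 to 96. With CPM from plain library totals, without TMM scaling, the count over all steps was 69 of 120 (57.5%), with that of BMPR2 at 15 of 30.

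Set beside single targets, BMPR1B and BMPR2, the compared receptors with sizeable steps, gave no common direction. ID1 and ID3 moved the same way as each other in 6 of 6 steps. Each of them moved the same way as BMPR1B in 1 of 6 steps and the same way as BMPR2 in 4 of 6. The largest step of BMPR1B, from D7 to D10 in experiment 2, was a log2 change of 1.87, and in it ID1 changed by -0.98, ID3 by -0.55 and ID2 by -1.87. The largest step of BMPR2 was the same one, with a log2 change of -1.14. This step ends in the D10 library of experiment 2, the one low in fibroblast markers. The part of that difference in these changes was not tested. Conversely, ID3 changed by 1.30 from D7 to D10 in experiment 1 while BMPR2 changed by 0.04, ACVR1 by 0.12 and BMPR1A by 0.14. ID2 moved the same way as BMPR1B in 3 of 6 steps, and it stayed below D0 at D10 while BMPR1B overlapped D0 there.

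**Figure D4:**
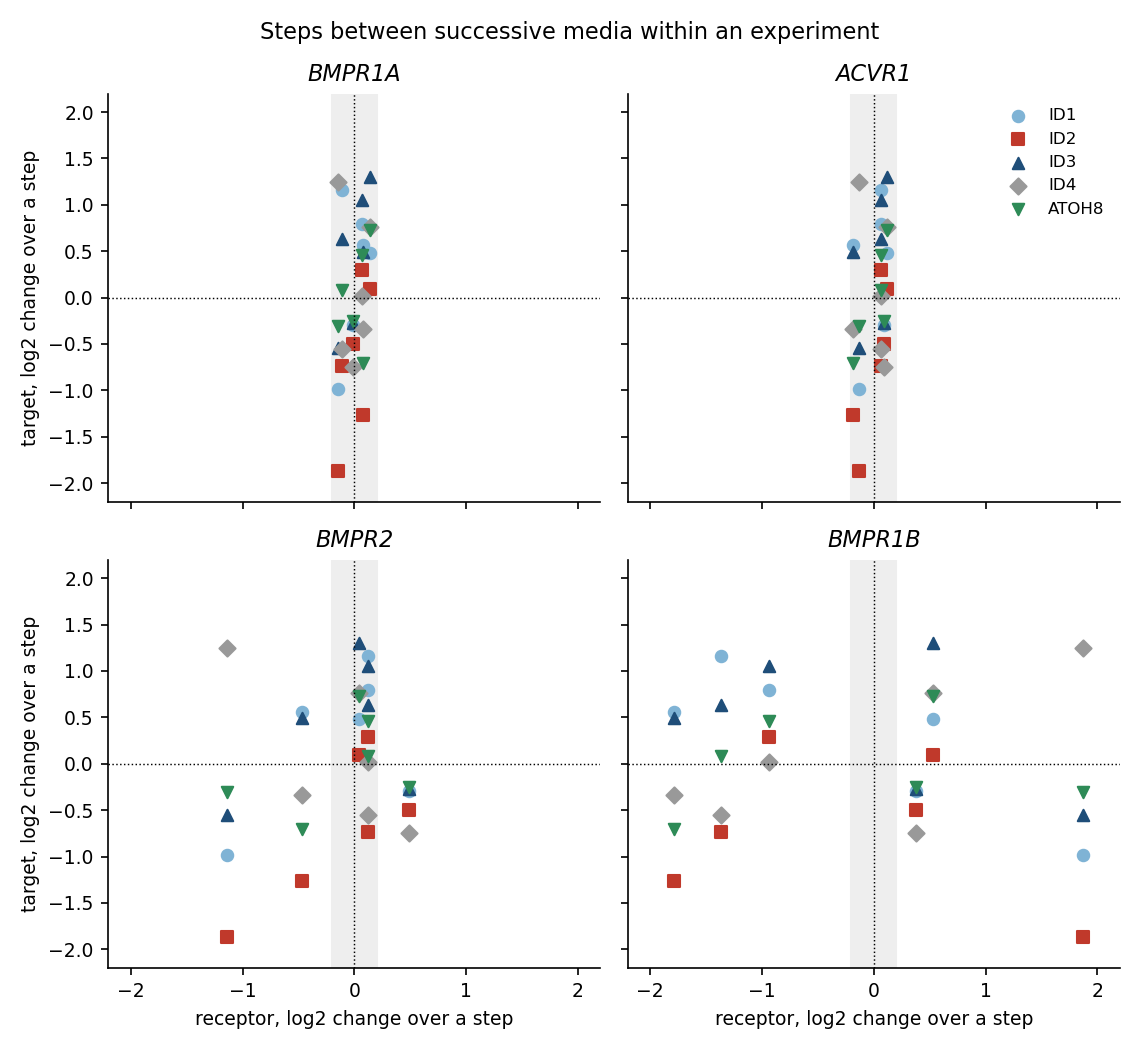
Log2 change of each target (vertical axis) against that of a receptor (horizontal axis, 1 panel per receptor) over the 6 steps between successive media within an experiment, with the band from -0.2 to 0.2 shaded. All BMPR1A and ACVR1 points lie in the band while the targets spread from -1.87 to 1.30, and the BMPR1B points of ID1 and ID3 lie in opposite quadrants in 5 of 6 steps.

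Other genes of the pathway were read from lists of ligands, antagonists, receptors, SMADs and target genes. Of 12 BMP ligands 5 were tested, and at D10 the edgeR test called 1 higher and 0 lower, where 0.196% and 0.0942% of all genes were called. The gene was BMP2, a ligand of the BMPR1A and BMPR2 complex, with 15.0 and 10.0 CPM in D0, 28.4 and 40.7 in D4, 50.3 and 86.3 in D7, and 126 and 307 in D10. It was higher at each later medium in both experiments, with a log2 fold change in D10 of 4.11 (SE 0.52, adjusted p = 0.0379). With the replicate block, where 2.54% of all genes were called higher and 2.45% lower, 3 ligands were also lower at D10. These were BMP4 (log2 fold change -1.66, adjusted p = 0.00513), GDF5 (-2.58, 0.0103) and GDF6 (-1.81, 0.0146). BMP4 was at 191 and 156 CPM at D0 and 73.9 and 38.9 at D10. The median log2 fold change of the 5 ligands at D10 was -1.63, beside 0.004 for all tested genes.

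Of 12 secreted BMP antagonists 8 were tested, and none was called at D10 by the edgeR test without the block. With the replicate block GREM1 was higher (log2 fold change 2.12, adjusted p = 0.0275). GREM1, which binds BMP2 and BMP4 and keeps them from their receptors, was at 148 and 313 CPM in D0, 113 and 131 in D4, 190.3 and 166 in D7, and 450.4 and 1679 in D10. At D4 both libraries were below the D0 library of their own experiment, at D7 the experiments differed in sign, and at D10 both were above it.

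Of 9 other receptors and co-receptors 7 were tested and 1 was called at D10, BAMBI, a pseudoreceptor without kinase activity that dampens BMP and TGF-β signals and is itself a BMP target. It was at 63.9 and 43.2 CPM in D0, 18.2 and 14.8 in D4, 14.6 and 13.7 in D7, and 14.9 and 12.5 in D10. Its log2 fold change at D10 was -1.97 (SE 0.27, adjusted p = 0.0402), and with the replicate block it passed on all 3 days. Unlike ID1 and ID3, every later BAMBI library was below D0. ACVRL1, a type I receptor for BMP9 and BMP10 best known from endothelium, passed only with the replicate block, with log2 fold changes of 1.76 at D7 (adjusted p = 0.0383) and 1.47 at D10 (0.0311). It was at 15.2 and 8.88 CPM in D0, 33.4 and 23.6 in D4, 38.3 and 38.8 in D7, and 51.3 and 18.4 in D10. Its highest level was that of D10 in experiment 1 and that of D7 in experiment 2, as for ID1 and ID3. ACVRL1 was not among the receptors set against targets step by step. Among the endothelial markers, TEK was at 88.2 and 77.4 CPM at D0 and 120.5 and 75.0 at D10, while PECAM1 and CDH5 stayed below 1 CPM in every library. Their part in the ACVRL1 values was not tested.

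Of 8 SMAD and SMURF genes all 8 were tested, and none was called at D10 without the block. SMAD1, which carries the signal from the type I receptors, passed with the replicate block at D7 (log2 fold change 1.12, adjusted p = 0.0401) and D10 (1.58, adjusted p = 0.00370). It was at 7.63 and 12.1 CPM in D0, 10.9 and 16.5 in D4, 20.3 and 21.8 in D7, and 27.6 and 30.5 in D10, and so was higher at each later medium in both experiments. SMAD5 and SMAD4 had log2 fold changes of -0.03 (95% interval -0.999 to 0.94) and -0.07 (-0.65 to 0.50) at D10. Of 11 other BMP target genes 7 were tested, and BAMBI was the only one called, with or without the block. The inhibitory SMADs, both of them BMP targets, had opposite signs at D10 without passing. SMAD6 had a log2 fold change of -1.13 (95% interval -2.06 to -0.21, adjusted p = 0.435) and SMAD7 one of 0.88 (0.07 to 1.69, adjusted p = 0.537). The BMP targets of this list did not all share a direction. The median log2 fold change of the 7 tested was -0.008 at D4, -0.40 at D7 and -0.28 at D10. For all tested genes it was 0.009, -0.0004 and 0.004. The medians at D7 and D10 are the values of MSX1 (95% interval -1.39 to 0.58) and MSX2 (-1.21 to 0.66).

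**Figure D5:**
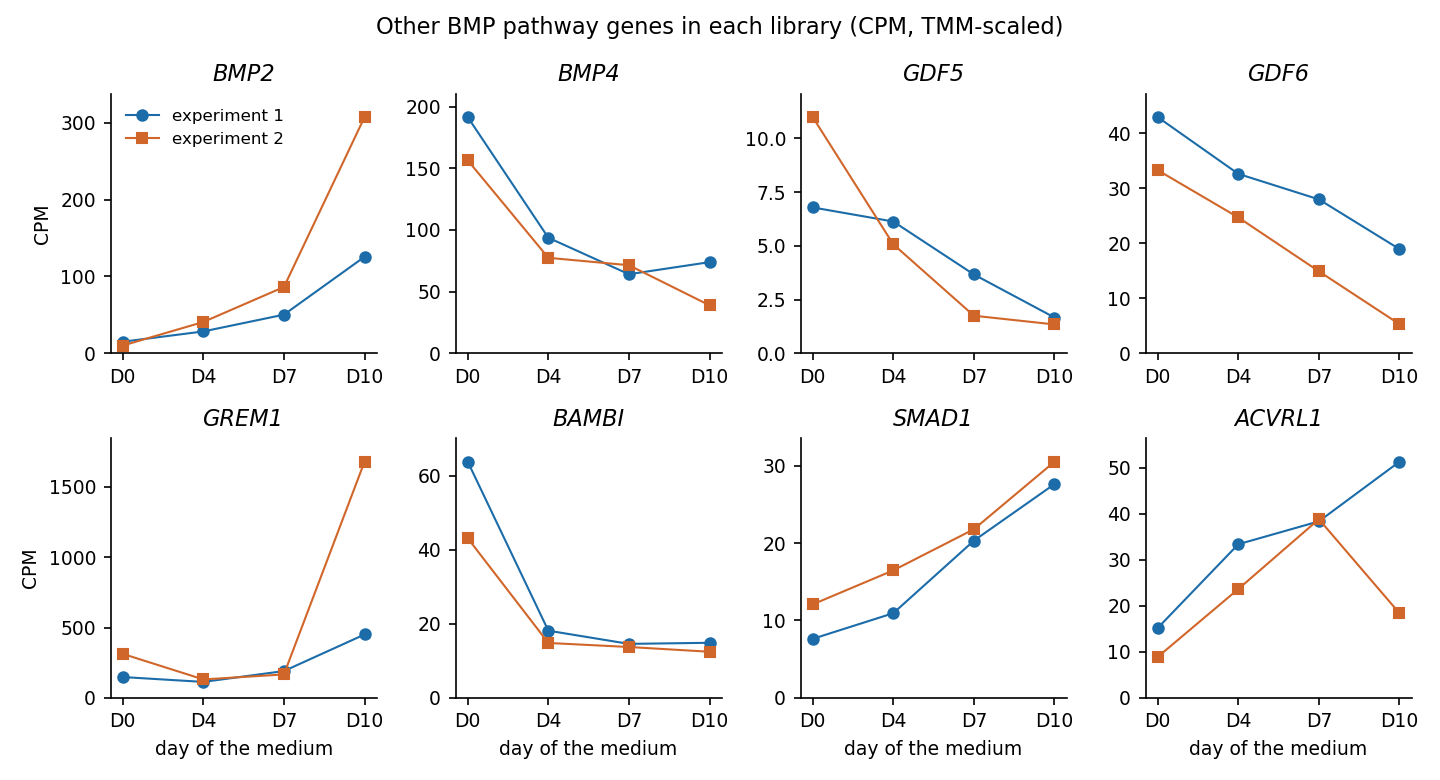
Level in CPM (linear axes starting at 0) of 8 other BMP pathway genes against the day of the medium, 1 point per library and 1 line per experiment. BMP2 and SMAD1 are higher at each later medium in both experiments, BAMBI is below D0 from D4 on, and GREM1 reaches 450.4 and 1679 CPM at D10.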

How the data were processed

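RNA of 8 recipient samples, 4 groups in each of 2 experiments, was poly(A)-selected and sequenced from stranded libraries. The authors deposited raw counts per gene beside 8 columns of RPM values, which were not used. The submitters' processing notes name STAR 2.5, DESeq2 and the build GRCh38; the counter, the annotation and the strand setting are not given in the sources used here. One column headed DO in place of D0 was taken as D0 replicate 1. Positions are those of GENCODE 29, which holds 99.6% of the identifiers.

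Genes were filtered with filterByExpr, scaled with TMM and tested with edgeR 4.0.16 (glmQLFit, glmQLFTest, R 4.3.3) in 1 fit of all 8 libraries, with Benjamini-Hochberg adjustment over all 13798 genes tested. Log2 CPM used a prior count of 2. DESeq2 1.42.0, other scalings and filters, the compared groups only, a replicate block and leaving out each library were alternatives. The procedure was tested on simulated data. The replicate numbers were taken to pair the libraries. The study's methods give 2 independent experiments, and the labels give replicate numbers only. When group means were subtracted, libraries with the same number correlated over genes in each of the 6 pairs of groups (r from 0.418 to 0.722). Adding the block brought the common dispersion from 0.0792 to 0.0242.

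The 9 genes and the gene lists were chosen with earlier results of these data known. From each list, genes past the threshold on any day with or without the block are named, or otherwise the 2 with the largest change at D10. The results of 1 gene are not reported here. Nearest patterns are the 3 genes with the smallest mean absolute difference in log2 change from D0 over 6 libraries. Sequences are from RefSeq. Figures were drawn with matplotlib 3.10.9.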

Additional observations from a re-analysis of the deposited data

How the results depend on the processing

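The number of genes called moved with the processing. At D4 it was 44 with DESeq2, 21 without a filter and 38 with the replicate block, against 0. At D7 it was 113, 93 and 172, against 0. At D10, against 40, it was 383, 371 and 688, then 25 with plain library totals, 20 with at least 10 counts in every library and 0 with the compared groups only. Leaving out 1 library gave 0 at D4 and D7 and 0 to 155 at D10, with 0 without either D0 library, 11 without the D10 library of experiment 2 and 155 without that of experiment 1. ID2 at D10 passed with DESeq2 (-1.99), without a filter (-1.99) and with the replicate block (-1.96), and ID3 at D10 without a filter (1.41). The block changed no other call of the 9 genes. BMPR1A, close to 0, changed sign at D7 with plain totals (-0.0058) and the compared groups (-0.00042) and at D10 with plain totals (0.0025) and the block (0.0027). The share of steps in 1 direction was 57.5% with plain totals and 40.5% for changes of at least 0.2. The cause of these moves was not tested.

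Leaving out 1 library, the fitted changes (log2, in the order D4, D7, D10) ranged from -1.44 to 0.30, -2.93 to 0.028 and -1.42 to 1.47 for ID4, from -0.28 to 0.27, -0.25 to 0.30 and -0.27 to 0.28 for BMPR1A, from -0.21 to 0.091, -0.13 to 0.16 and -0.15 to 0.17 for ACVR1, from -0.95 to 0.38, -0.86 to 0.46 and -0.59 to 0.73 for ATOH8, and from -0.82 to 0.40, -0.33 to 0.53 and -0.73 to -0.10 for BMPR2. ID1 (0.60 to 1.15, 0.52 to 1.68 and 0.60 to 1.15), ID2 (-1.33 to -0.70, -1.84 to -0.39 and -2.28 to -1.74), ID3 (0.17 to 1.03, 0.58 to 1.40 and 0.69 to 1.88) and BMPR1B (-2.17 to -1.20, -2.199 to -1.69 and -1.19 to -0.20) kept their sign. ID4 could not be fitted with at least 10 counts in every library, nor with the compared groups only at D4 and D7.

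With 2 libraries per group and a single cell strain, p-values without the replicate block measure the spread between these 2 experiments. With the block, a constant difference between the experiments is taken out, and p-values rest on the spread that remains. ID4 and BMPR1B rest on few counts.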

Other observations

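The binding partners of ID proteins did not pass the test. Of 8 basic helix-loop-helix genes in that list 6 were tested and none passed the edgeR test at D10, with or without the replicate block. The E protein genes TCF3, TCF4 and TCF12 had log2 fold changes of -0.06 (95% interval -0.53 to 0.40), -0.18 (-1.34 to 0.98) and 0.11 (-0.70 to 0.93) at D10. TCF21, a partner of E proteins in mesenchymal cells, was at 72.2 and 66.2 CPM in D0, 44.5 and 30.9 in D4, 52.9 and 41.8 in D7, and 139.6 and 630.4 in D10. Its log2 fold change at D10 was 2.48 (1.06 to 3.89, adjusted p = 0.170, and 0.0533 with the block). It was thus below D0 at D4 and D7 and above it at D10 in both experiments. TWIST1 had a log2 fold change of -0.37 (-0.97 to 0.23).

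Patterns close to those of ID1, ID2, ID3, ATOH8, BMPR1A, BMPR2 and ACVR1 were sought over all tested genes, and not for ID4 and BMPR1B. For ID1 the nearest were KCNF1, a potassium channel subunit, TMEM150C and PDGFB, a growth factor for mesenchymal cells, with mean absolute differences of 0.19, 0.20 and 0.21 in log2 change over 6 libraries. ID3 came at rank 18 for ID1, with a difference of 0.31, and ID1 at rank 11 for ID3, while ID2 came at rank 13685 for ID1 and 13687 for ID3. The nearest to ID3 were PLA2G4A, SUSD2 and IL15RA (0.24, 0.29 and 0.29). For ID2 they were RASL11A, SLC12A8 and PCDH7 (0.19, 0.23 and 0.27), and for ATOH8 AC002454.1, ASPHD2 and PLCG2 (0.15, 0.16 and 0.17). For the receptors they were MED4, WDR60 and IARS2 for BMPR1A, TNS1, PLA2R1 and PTPN13 for BMPR2, and UBTD2, CHUK and UBQLN2 for ACVR1, with differences of at most 0.09. All these differences use the same 2 D0 libraries.

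Of 9 TGF-β response genes all 9 were tested and TAGLN, a smooth muscle actin-binding protein, was called at D10 with the replicate block (log2 fold change -1.54, adjusted p = 0.00332). It was at 2124 and 1699 CPM at D0 and 754 and 564 at D10. Of the 10 fibroblast markers, DCN (-1.75, adjusted p = 0.0362) and PDGFRB (-1.40, 0.0181) were lower at D10 and LUM (-1.08, 0.0408) at D7, and of 3 epithelial markers tested KRT18 was lower at D10 (-0.80, 0.0220), all only with the block. With the block 2.45% of all genes were lower at D10 and 1.25% were called in either direction at D7. Of 8 endothelial markers 2 were tested, and of 8 leukocyte markers 2, and none of these passed. Without the block, TEK was at 0.24 and CD68 at 1.30 on the log2 scale at D10, where CD68 rests on 3 to 12 counts per library.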
